A study of Mus musculus with 10 samples.

Results

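Vagal sensory neurons of the jugular ganglion were compared with those of the nodose ganglion whatever the Trpv1 status of the nodose cells, in 6 of the 10 pools of this mouse series. The 2 jugular pools were set against 4 nodose pools, of which 2 held Trpv1-positive and 2 held Trpv1-negative neurons, and the question was which genes separated the ganglia in every pool. All 6 pools came from Trpv1-tdTomato mice, made by crossing Trpv1-Cre mice with a ROSA26 tdTomato reporter, so that cells which use or once used the Trpv1 gene are red. Each jugular pool and each Trpv1-positive nodose pool held 30 red cells, and each Trpv1-negative nodose pool held 15 cells without red signal. The cells were picked by pipette after dissociation of the fused ganglion, at its rostral end for jugular and its caudal end for nodose cells, from 2 mice in all. The age and sex of the mice and the mouse behind each pool were not given in the sources used here. With 6 pools from 2 mice some pools share a mouse, and the p-values measure the spread between pools only. No Trpv1-negative jugular pool was among the samples, so the comparison says nothing about such cells.

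Both ganglia send sensory fibres along the vagus nerve, but they have different embryonic origins. Nodose neurons come from an epibranchial placode and serve visceral organs such as the lung and the gut. Jugular neurons come from the neural crest, like those of the dorsal root ganglia, and share with them regulators of somatic sensory neurons such as Prdm12. Trpv1, the capsaicin receptor channel, is a marker of C-fibre nociceptors and is found in both ganglia.

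The count of Trpv1 was checked first against the labels. Trpv1 stood at 22.9 and 33.7 CPM in the jugular pools, at 267 and 158 CPM in the Trpv1-positive nodose pools, and at 0.0443 and 0.0400 CPM in the Trpv1-negative nodose pools. The red pools of both ganglia held the transcript and the non-red pools were close to 0, and both jugular pools were below both red nodose pools (edgeR's quasi-likelihood test, adjusted p = 0.285). CPM here are counts over DESeq2's size factors of the 6 pools, expressed per 1e6 of the typical library total. The pools had 148452506 to 167704327 counts on genes, at which 3 counts, taken as the smallest value told from 0, came to 0.0148 to 0.0204 CPM.

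In all, 12314 genes passed the filter on low counts and were tested with edgeR's quasi-likelihood test, jugular against the mean of the Trpv1-positive and Trpv1-negative nodose groups. A gene was called where its Benjamini-Hochberg adjusted p did not exceed 0.1, the groups differed 2-fold or more, and both pools of some group reached 10 CPM. At an unadjusted p below 0.05 there were 1478 genes. The calls were 49 genes higher in jugular pools, which is 0.398% of the genes tested, and 38 genes higher in nodose pools, or 0.309%. Of these 87 genes, 78 separated the ganglia in every pool: both jugular pools lay on one side of all 4 nodose pools, and the means differed by at least 2-fold from each nodose group. These were 43 genes higher in jugular (0.349% of the genes tested) and 35 genes higher in nodose (0.284%). Non-overlap alone was common, since both jugular pools lay above all 4 nodose pools in 9.6% of the genes tested and below them in 10.3%. With 15 ways to choose 2 of 6 pools, an exact one-sided permutation test cannot go below p = 0.0667, so the calls rest on the spread that edgeR shares across genes. A stricter set of 24 genes (0.195% of the genes tested) was also called against each nodose group on its own, with 10 raised in the jugular and 14 in the nodose ganglion. The comparisons with the 2 nodose groups share the jugular pools.

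Dcdc2a, Hoxb5 and Etv1 in nodose pools and Tac1 in jugular pools were called under each of the 12 alternative analyses, out of 36 genes named by rule. DESeq2 called 945 genes in the same comparison, among them 86 of the 87, and 670 of them separated every pool. Its counts are given for comparison only. In simulated counts with wide spread most calls of DESeq2 were false. Those simulated calls did not need 10 CPM and all genes had the same spread, so the false share among the 945 is not known. The counts of calls depended on every pool. They fell from 87 to 12 without jugular pool 1, 8 without jugular pool 2, 30 and 35 without Trpv1-positive nodose pool 1 or 2, and 20 and 17 without Trpv1-negative nodose pool 1 or 2.

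Of the transcription factors, 2 genes of the Hoxb cluster separated the ganglia. Hox genes encode homeodomain factors that set position along the body axis. Hoxb5 (GRCm38 chr11:96303336-96306121, plus strand) had 0.127 and 0.148 CPM in the jugular pools, 429 and 368 CPM in the Trpv1-positive nodose pools, and 297 and 392 CPM in the Trpv1-negative nodose pools. The nodose groups overlapped, and the jugular pools held 23 and 28 reads of this gene. The log2 fold change of jugular over nodose was -11.39 ± 0.50 (SE; adjusted p = 0.00074), and between the nodose groups it was 0.11 (adjusted p = 0.986). Hoxb6 (chr11:96292476-96301569) followed the same pattern at 0.0332 and 0.0422 CPM in jugular, 87.7 and 99.7 CPM in Trpv1-positive nodose and 66.3 and 85.6 CPM in Trpv1-negative nodose pools (log2 fold change -11.10 ± 1.21, adjusted p = 0.0235). Both genes overlap Hoxb5os, and as the strand setting of the counting is unknown, reads of overlapping genes cannot be told apart. The same holds for Dcdc2a (with Gm11348) and Prdm12 (with Gm13425). It also holds for further genes named below, such as Fhod3 (with Tpgs2), Jak1 (with Raver2) and Ppm1j (with Fam19a3). Hoxb4, the next gene of the cluster, had 4 reads in each jugular pool and 17.9 to 27.7 CPM in the nodose pools, but its adjusted p was 0.205. Hoxb2 reached 13.9 to 53.8 CPM in nodose but only 0.0111 and 2.23 CPM in the jugular pair (adjusted p = 0.461), whereas Hoxb3 overlapped between the ganglia. Of 39 Hox genes in the files 11 were tested. The 2 named above were called, both higher in nodose (18.2%, against 0.71% of all genes tested). The median log2 fold change was -1.78 over the 11 against 0.09 over all genes tested.

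Of the list of placodal and visceral sensory regulators, Tbx3, Nhlh2 and Eya1 had higher values in nodose pools and did not pass the test. The T-box factor Tbx3 reached 235 and 165 CPM in Trpv1-positive nodose pools, 26.1 and 38.6 CPM in the Trpv1-negative ones, and 0.0387 and 2.32 CPM in the jugular pair, without overlap but with an adjusted p of 0.276. Nhlh2 and Eya1 were also lower in both jugular pools than in each nodose pool, with adjusted p of 0.279 and 0.211.

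Among 16 tested regulators of crest-derived and somatic sensory neurons, 1 gene was called in each direction (12.5%, against 0.71% of all genes tested). Prdm12 (chr2:31640037-31655795, plus strand), a PR-domain regulator needed for nociceptors to form, had 177 and 193 CPM in the jugular pools. In the nodose pools it had 0.252, 0.0396, 0.0246 and 0.0400 CPM, and the log2 fold change was 11.38 ± 1.12 (adjusted p = 0.018). Etv1 (chr12:38779380-38870484, plus strand), an ETS factor known from proprioceptors of the dorsal root ganglia, went the other way. It had 0.111 and 0.0897 CPM in jugular, 250 and 192 CPM in Trpv1-positive nodose and 190 and 240 CPM in Trpv1-negative nodose pools (log2 fold change -11.07 ± 0.66, adjusted p = 0.00257). Prrxl1 (Drgx), a paired homeodomain factor of somatic sensory neurons, had 8.82 and 19.9 CPM in jugular pools and at most 3 reads in each nodose pool, with an adjusted p of 0.198. Tlx2, Tlx3, Isl2 and Pou4f1, which many sensory neurons share, overlapped between the ganglia or did not pass the test (adjusted p = 0.476 to 0.993). Cited1, Gm13157 and Tshz1 had been picked by the study from these red pools, as had Prdm12, Hoxb5, Tbx3 and Nhlh2, so their direction there is not independent evidence. The study also reported a similar pattern for them in neurons chosen by their response to capsaicin. With the non-red pools added, Cited1 and Tshz1 were not near 0 in every nodose pool. Cited1 stood at 15.6 CPM and Tshz1 at 10.2 CPM in a single Trpv1-negative nodose pool each, against 48.7 and 71.0 CPM and 39.3 and 35.7 CPM in the jugular pools. Their adjusted p were 0.272 and 0.287, and edgeR called 0 of 4 genes on the list that holds them, with 4 at an unadjusted p below 0.05 and 3 called by DESeq2.

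**Figure D1:**
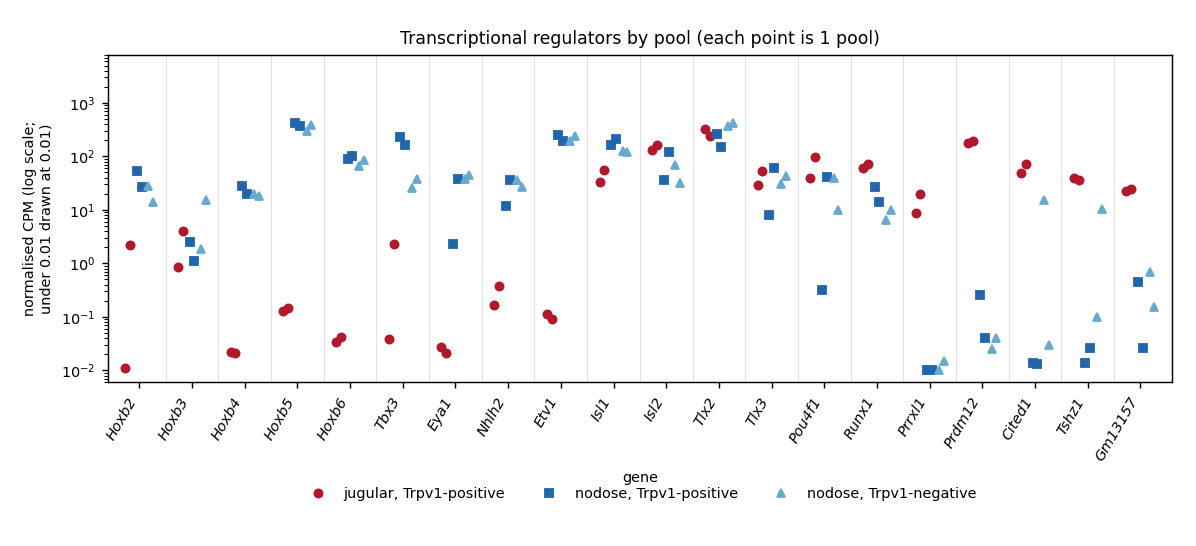
Normalised CPM (log axis) of 20 transcriptional regulators, each point 1 pool, with jugular pools as circles, Trpv1-positive nodose pools as squares and Trpv1-negative nodose pools as triangles. Hoxb5, Hoxb6 and Etv1 have nodose pools from 66.3 to 429 CPM and jugular pools from 0.0332 to 0.148 CPM, and Prdm12 has jugular pools at 177 and 193 CPM above all nodose pools.

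The sequences just upstream of the start of 4 genes on which the comparison turns are shown, Tac1 and Prdm12 as jugular genes and Dcdc2a and Etv1 as nodose genes. They are the 250 bases before the RefSeq start on GRCm38.p6, 5′ to 3′, and capitals mark TAATTA (the core bound by many homeodomain factors), AGGTGT (the core bound by T-box factors) or CANNTG (the E-box of basic helix-loop-helix factors), searched on both strands. For Tac1 and Etv1 the GENCODE gene start lies upstream of the RefSeq start, within or before the window.
Tac1, chr6:7554811-7555060, plus strand: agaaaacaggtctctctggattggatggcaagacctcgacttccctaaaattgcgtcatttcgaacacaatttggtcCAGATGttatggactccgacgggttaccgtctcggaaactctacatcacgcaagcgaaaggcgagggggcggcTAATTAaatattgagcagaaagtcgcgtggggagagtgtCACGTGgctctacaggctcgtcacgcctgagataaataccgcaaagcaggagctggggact
Prdm12, chr2:31639787-31640036, plus strand: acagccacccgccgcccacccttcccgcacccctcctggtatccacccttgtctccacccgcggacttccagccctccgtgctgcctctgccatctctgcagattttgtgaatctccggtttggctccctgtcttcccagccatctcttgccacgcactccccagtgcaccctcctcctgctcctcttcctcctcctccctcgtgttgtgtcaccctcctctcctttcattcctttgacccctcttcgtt
Dcdc2a, chr13:25055754-25056003, plus strand: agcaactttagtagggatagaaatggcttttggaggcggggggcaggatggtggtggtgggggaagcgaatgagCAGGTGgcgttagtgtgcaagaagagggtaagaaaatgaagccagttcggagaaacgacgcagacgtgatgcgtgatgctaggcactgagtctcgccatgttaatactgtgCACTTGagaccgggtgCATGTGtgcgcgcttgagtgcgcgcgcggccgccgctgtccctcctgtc
Etv1, chr12:38779832-38780081, plus strand: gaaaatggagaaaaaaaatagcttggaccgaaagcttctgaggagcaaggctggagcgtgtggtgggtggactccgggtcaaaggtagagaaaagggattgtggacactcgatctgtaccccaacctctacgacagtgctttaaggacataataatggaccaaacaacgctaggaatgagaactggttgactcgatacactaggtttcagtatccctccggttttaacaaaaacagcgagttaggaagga
Tac1 held 1 TAATTA and 2 CANNTG, Dcdc2a held 3 CANNTG, and the windows of Prdm12 and Etv1 held none of the 3 motifs. Promoters of 300 bases (250 before to 50 after the start) were found for 31 of the 43 jugular genes, 23 of the 35 nodose genes and 9335 of the genes tested. TAATTA was in 6.45% of the jugular, 0% of the nodose and 2.43% of all promoters. AGGTGT was in 6.45%, 17.4% and 10.7%, and CANNTG in 67.7%, 82.6% and 63.2%. The TAATTA and AGGTGT shares of the separating genes rest on 0 to 4 promoters each.

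The ion channel genes called on these lists were ligand-gated channels higher in nodose pools, and Piezo2 and Kcna1 higher in jugular pools. Of 38 tested ligand-gated channel subunits, 4 were called, all higher in nodose (10.5%, against 0.71% of all genes tested). P2rx2, which encodes a subunit of ATP-gated P2X channels, had 471 and 328 CPM in Trpv1-positive nodose pools and 78.2 and 187 CPM in Trpv1-negative nodose pools. The jugular pair had 0.0941 and 0.0686 CPM (log2 fold change -11.45 ± 0.82, adjusted p = 0.0052). Its partner P2rx3 ranged from 103 to 335 CPM over the nodose pools and stood at 179 and 234 CPM in the jugular pools, which fell within that range (adjusted p = 0.913). P2rx2 was thus read in nodose pools of both kinds, and P2rx3 in all 6 pools.

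Chrna3, a nicotinic acetylcholine receptor subunit, had 247 and 299 CPM in Trpv1-positive nodose, 84.8 and 42.8 CPM in Trpv1-negative nodose, and 0.0443 and 0.0897 CPM in the jugular pair (log2 fold change -10.93 ± 0.94, adjusted p = 0.0112). Chrnb4, which pairs with it, was higher in all nodose pools, at 6.78 to 175 CPM against 2.16 and 2.79 CPM, but was not called (adjusted p = 0.279). Both subunits of the 5-HT3 serotonin receptor channel were called. Htr3b stood at 0.388 and 2.45 CPM in the jugular pair, against 102 to 460 CPM in nodose (log2 fold change -7.16 ± 1.12, adjusted p = 0.088, or 0.106 with nodose taken as 1 group). Htr3a was read in both ganglia, with 103 and 31.5 CPM in the jugular pair against 545 to 1264 CPM in nodose (log2 fold change -3.60 ± 0.55, adjusted p = 0.084). Asic3 and P2rx6 leaned to jugular pools, at 49.8 and 84.7 CPM and at 21.5 and 50.7 CPM against at most 0.684 CPM in any nodose pool, and did not pass the test (adjusted p = 0.121 and 0.132).

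Of 15 tested Trp and Piezo channels, Piezo2 was the one gene called (6.67%, against 0.71% of all genes tested). Piezo2, the main channel of touch and stretch sensing, had 56.7 and 104 CPM in jugular, 13.7 and 10.4 CPM in Trpv1-negative nodose, and 2 and 4 reads in the Trpv1-positive nodose pools. Its log2 fold change was 7.33 ± 1.17 (adjusted p = 0.088), and against the Trpv1-negative nodose pools alone it was 2.69 (adjusted p = 0.509). With nodose taken as 1 group of 4 pools Piezo2 was not called (log2 fold change 3.69, adjusted p = 0.644), nor in any of the 6 fits that left out a pool. Of 87 tested voltage-gated channel genes, only the potassium channel gene Kcna1 was called (1.15%, against 0.71% of all genes tested). It was higher in jugular and did not separate every pool. Its jugular pools stood at 149 and 54.9 CPM and its Trpv1-negative nodose pools at 58.9 and 30.2 CPM, which overlapped. Scn10a and Scn11a, the sodium channel genes of nociceptors, were read in all 6 pools at 130 to 432 CPM and 73.8 to 259 CPM, with overlap between the ganglia (adjusted p = 0.661 and 0.54).

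Neuropeptide genes separated the ganglia in both directions, 2 toward jugular and 1 toward nodose. Of 13 tested genes 4 were called (30.8%, against 0.71% of all genes tested). Tac1, which encodes substance P and neurokinin A, had 1106 and 875 CPM in the jugular pools and 1.01, 0.257, 0.280 and 0.265 CPM in the 4 nodose pools. The red nodose pools were thus low like the non-red ones. The log2 fold change was 11.22 ± 0.65 (adjusted p = 0.00254), or 10.66 over the Trpv1-positive and 11.77 over the Trpv1-negative nodose pools. Calca, which encodes calcitonin gene-related peptide, showed 3 levels: 3754 and 3947 CPM in jugular, 306 and 491 CPM in Trpv1-positive nodose, and 0.851 and 1.04 CPM in Trpv1-negative nodose pools. The log2 fold change of jugular was 3.32 (adjusted p = 0.00948) over the Trpv1-positive and 11.94 (adjusted p = 0.00024) over the Trpv1-negative nodose pools, and the nodose groups themselves differed by 8.62 (adjusted p = 0.00116). The call of Calca was lost with nodose taken as 1 group of 4 pools (log2 fold change 4.32, adjusted p = 0.547). Calcb, its paralog, had 1186 and 1172 CPM in jugular, 171 and 166 CPM in Trpv1-positive nodose and 0.684 and 10.8 CPM in Trpv1-negative nodose pools, and narrowly missed the threshold (adjusted p = 0.102).

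Cartpt, which encodes a peptide found in gut vagal afferents, was the one neuropeptide gene that separated toward nodose. It had 58.1 and 38.1 CPM in jugular, 1201 and 864 CPM in Trpv1-positive nodose, and 216 and 221 CPM in Trpv1-negative nodose pools (log2 fold change -3.30 ± 0.33, adjusted p = 0.018). With nodose taken as 1 group Cartpt was not called (log2 fold change -3.66, adjusted p = 0.222). Uts2b, the urotensin 2B gene, was called toward nodose but did not separate the ganglia. It had 334 and 509 CPM in Trpv1-positive nodose pools, and between 0.0369 and 0.0886 CPM in jugular and Trpv1-negative nodose pools alike. Vip was distributed in the same way, at 118 and 136 CPM in Trpv1-positive nodose pools and at most 0.0264 CPM elsewhere, but was not called (adjusted p = 0.279). Adcyap1, Gal and Bdnf overlapped between the ganglia.

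**Figure D2:**
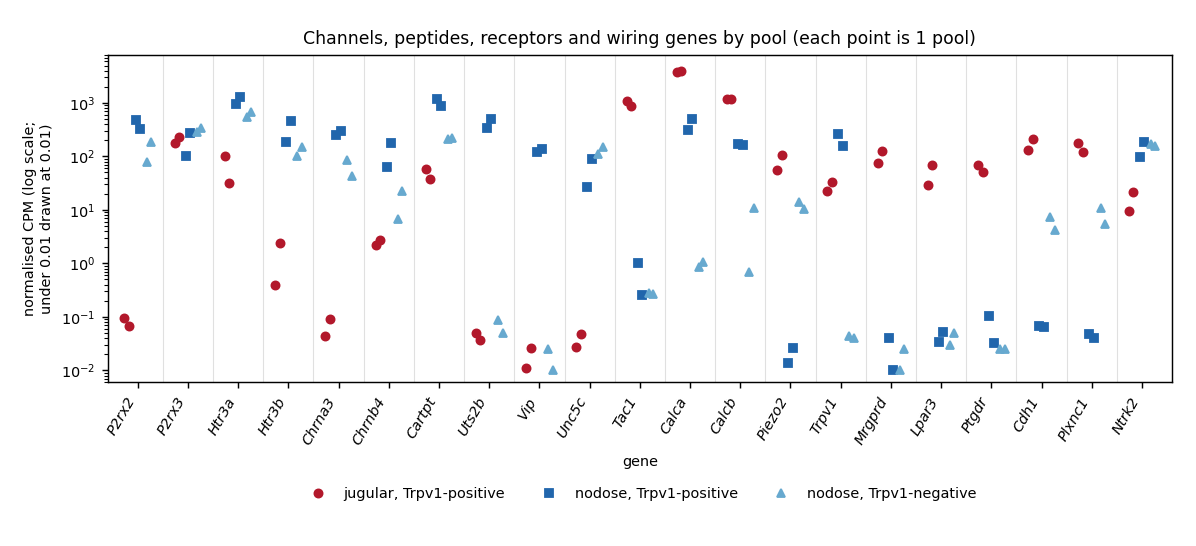
Normalised CPM (log axis) of 21 channel, peptide, receptor and wiring genes, each point 1 pool, with symbols for the 3 groups as in the key. P2rx2, Chrna3 and Unc5c are near 0 in both jugular pools only, Mrgprd, Lpar3 and Ptgdr are near 0 in the 4 nodose pools only, Tac1 is at 1.01 CPM or less in them, and Uts2b, Vip, Calca and Trpv1 also differ between the nodose groups.

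Of 30 tested receptors for gut hormones and inflammatory mediators, 3 were called, all higher in jugular (10%, against 0.71% of all genes tested). Mrgprd, a Mas-related receptor known from non-peptidergic nociceptors of the skin, had 74.7 and 124 CPM in jugular pools and 6, 1, 2 and 5 reads in the nodose pools (adjusted p = 0.0379). Lpar3, a receptor for lysophosphatidic acid, had 29.5 and 69.6 CPM in the jugular pair and at most 0.0528 CPM in nodose pools (adjusted p = 0.0995). Ptgdr, the DP1 receptor for prostaglandin D2, had 68.5 and 51.5 CPM in the jugular pair and at most 0.102 CPM in nodose pools (adjusted p = 0.084). Ptgdr overlaps the gene Gm16976, whose reads cannot be told apart from its own. Receptors with higher levels in nodose pools did not pass the test: S1pr3, a sphingosine 1-phosphate receptor, ranged from 178 to 436 CPM over the nodose pools and stood at 73.7 and 15.6 CPM in the jugular pair (adjusted p = 0.24).

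Of 16 tested neurotrophic and cytokine receptor genes edgeR called 0, with 5 at an unadjusted p below 0.05, which 1478 of all 12314 genes tested had, and 4 called by DESeq2. Ntrk2, which encodes TrkB, had 9.72 and 21.2 CPM in the jugular pair and 99.5 to 188 CPM in nodose pools, without overlap (adjusted p = 0.157). Ret and Lifr overlapped between the ganglia, with all 6 pools between 126 and 348 CPM and between 150 and 274 CPM.

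Of 58 tested axon guidance and adhesion genes, 3 were called toward jugular and 1 toward nodose (6.9%, against 0.71% of all genes tested). Unc5c, a netrin receptor, had 0.0277 and 0.0475 CPM in the jugular pair and 26.4 to 150 CPM in nodose pools (log2 fold change -11.13 ± 1.34, adjusted p = 0.0355). Cdh1, which encodes E-cadherin, had 133 and 208 CPM in jugular, 7.39 and 4.2 CPM in Trpv1-negative nodose, and at most 0.068 CPM in Trpv1-positive nodose pools (log2 fold change 8.09 ± 0.80, adjusted p = 0.018). Plxnc1, a semaphorin receptor, had the same order, with 176 and 118 CPM in jugular, 10.9 and 5.5 CPM in Trpv1-negative nodose and at most 0.0476 CPM in Trpv1-positive nodose pools (log2 fold change 7.93 ± 0.89, adjusted p = 0.025). Against the Trpv1-negative nodose pools alone neither gene was called (adjusted p = 0.267 for Cdh1 and 0.380 for Plxnc1). With nodose taken as 1 group of 4 pools, the log2 fold change of Cdh1 was 5.81 (adjusted p = 0.384) and that of Plxnc1 was 5.11 (adjusted p = 0.512), so that both calls were lost. The adhesion gene Cntn1 was called but did not separate, since its Trpv1-negative nodose pools at 127 and 110 CPM lay within the range of the jugular pools at 97 and 154 CPM.

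Beyond these lists, the widest gaps between the lowest pool of one ganglion and the highest of the other belonged to genes of varied function. Toward jugular, Gna14, a G protein alpha subunit of the Gq class on chr19:16435762-16610820, had 154 and 198 CPM in jugular pools and 5 to 9 reads in each nodose pool (log2 fold change 12.02 ± 0.92, adjusted p = 0.00704). Serpinb1a, a protease inhibitor with close paralogs, had 170 and 139 CPM against at most 0.0541 CPM (log2 fold change 11.74 ± 1.01, adjusted p = 0.0112). Ly86, which encodes the MD-1 partner of a Toll-like receptor homologue, had 167 and 150 CPM against at most 0.0748 CPM (log2 fold change 11.64 with an SE of 0.998, adjusted p = 0.0112). These 3 genes were also called against each nodose group on its own. Igfbp6, which binds insulin-like growth factors, had 118 and 67.2 CPM in jugular pools and 1, 3, 2 and 2 reads in the nodose pools, too few for a fold change. Smim5, Necab3, Def6, Nsun5, Igsf21, Prkcq and Serpina11 completed the 12 widest jugular gaps, with 35.9 to 77.9 CPM in jugular and at most 0.0528 CPM in nodose pools. Of these, Serpina11 was not called with nodose taken as 1 group (adjusted p = 0.107). Prkcq encodes protein kinase C theta, and Def6 and Necab3 encode a guanine nucleotide exchange factor and a calcium-binding protein. Smim5, Nsun5 and Necab3 overlap other genes (Recql5, Pom121 and Actl10).

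Toward nodose, Dcdc2a, a doublecortin-domain gene linked to microtubules on chr13:25056004-25210706, was read in every nodose pool. Its nodose pools stood at 733, 717, 538 and 536 CPM and its jugular pools at 0.299 and 0.243 CPM (log2 fold change -11.16 ± 0.38, adjusted p = 0.00021). Tmem54, Tm4sf4 and Mpped2 had 47.4 to 215 CPM in the nodose pools and at most 7 reads in a jugular pool, with adjusted p of 0.0379, 0.041 and 0.0292. Tmem54 overlaps the neuronal calcium sensor gene Hpca. Rgs2, a regulator of G protein signalling, had 90.2 and 113 CPM in Trpv1-positive and 27.5 and 16.4 CPM in Trpv1-negative nodose pools but 2 and 1 reads in the jugular pools, too few for a fold change. Fhod3, a formin, had 39.8 to 80.7 CPM in nodose and at most 0.0332 CPM in jugular pools (adjusted p = 0.0613). Gm9199, a predicted gene with no entry in GENCODE vM21, had 63.9 to 133 CPM in nodose and at most 0.0664 CPM in jugular pools (adjusted p = 0.018).

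For the 40 separating genes below 0.5 CPM in every pool of the lower ganglion, whether the few reads on the low side came from cells of the pool was not tested, and they are not read as expression here. Their large fold changes are in part set by the choice of genes that were low there.

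A second kind of separating gene was read in both ganglia. The lower ganglion reached at least 10 CPM in every pool for 11 of the 43 jugular genes and 11 of the 35 nodose genes, with ratios of means of 2.53 to 16.9 and 2.84 to 12.99. Those named here were chosen after their values were seen. Anxa5, an annexin, had 3209 and 3134 CPM in the jugular pair and 910 to 1464 CPM in nodose pools (log2 fold change 1.47 ± 0.17, adjusted p = 0.0292). S100a6, a calcium-binding protein of sensory neurons, had 2522 and 1964 CPM in jugular, 739 and 625 CPM in Trpv1-positive nodose and 173 and 163 CPM in Trpv1-negative nodose pools (log2 fold change 2.73 ± 0.17, adjusted p = 0.00287). Rgs10, a regulator of G protein signalling, had 764 and 753 CPM against 23.3 to 77.9 CPM (log2 fold change 4.14 ± 0.41, adjusted p = 0.018). Toward nodose, Jak1, a tyrosine kinase of cytokine receptors, had 153 and 57.8 CPM in the jugular pair and 569 to 1254 CPM in nodose pools (log2 fold change -3.03 ± 0.44, adjusted p = 0.0741). Lgals1, which encodes galectin-1, had 314 and 280 CPM in the jugular pair and 542 to 1550 CPM in nodose pools (log2 fold change -1.69 ± 0.20, adjusted p = 0.0292).

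How far the separating genes also followed Trpv1 was read from the nodose pools alone. The means of the nodose groups were within 2-fold of each other for 23 of the 43 jugular genes and 19 of the 35 nodose genes. Of the other jugular genes, 9 were over 2-fold higher in Trpv1-positive and 11 in Trpv1-negative nodose pools. Of the other nodose genes, 11 were over 2-fold higher in Trpv1-positive and 5 in Trpv1-negative nodose pools. However, 19 of the 43 jugular genes were below 0.5 CPM in every nodose pool. For these 19 the nodose means compare reads not taken as expression here, so whether they followed Trpv1 was not tested. Among them, the Trpv1-positive and Trpv1-negative nodose means were 0.0133 and 0.0099 CPM for Igfbp6, and 0.146 and 0.0323 CPM for Prdm12. In the test between the nodose groups, 15 genes were called (0.122% of the genes tested). They included 4 separating jugular genes (Ppm1j, Calca, Cpne6 and S100a6) and 0 of the separating nodose genes, for which the lowest adjusted p was that of Cartpt at 0.247. Ppm1j, a protein phosphatase gene, had 435 and 355 CPM in jugular, 14.6 and 16.9 CPM in Trpv1-negative nodose and 0.143 and 0.0990 CPM in Trpv1-positive nodose pools. Its log2 fold change was 11.72 over the Trpv1-positive and 4.60 over the Trpv1-negative nodose pools.

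The 9 called genes that did not separate every pool show what the rule left out. Cntn1, Kcna1 and Wdr33 overlapped between jugular and Trpv1-negative nodose pools and had 4 to 14 reads in the Trpv1-positive ones. Uts2b and Efcab6 were near 0 in jugular and Trpv1-negative nodose pools and at 217 to 509 CPM in the Trpv1-positive nodose pools. Fxyd2, Stmn1, Avil and Gnas lay without overlap between the ganglia but differed by less than 2-fold from a nodose group.

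**Figure D3:**
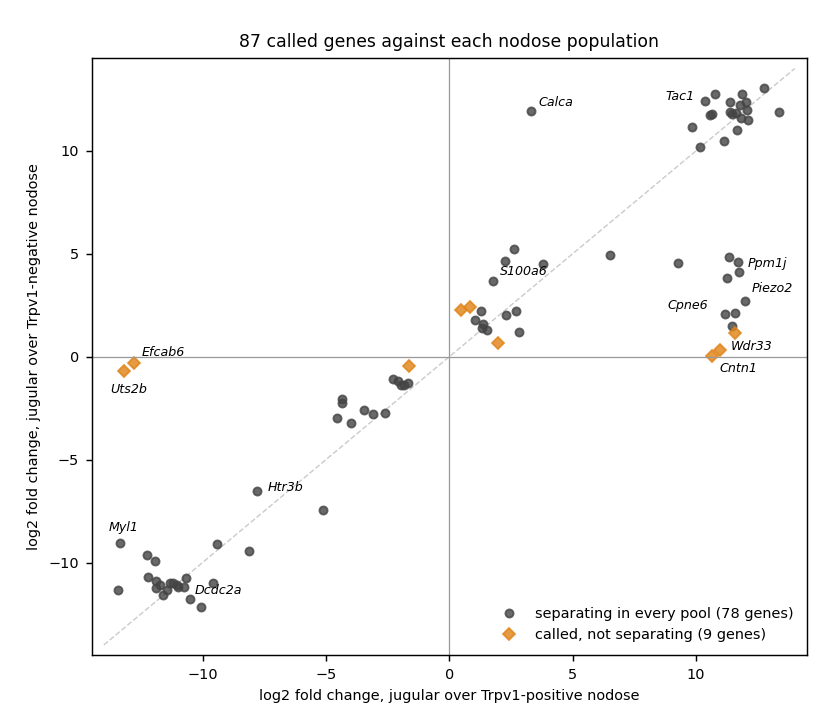
Fitted log2 fold change of jugular over Trpv1-positive nodose pools (x axis) and over Trpv1-negative nodose pools (y axis) for the 87 called genes, with the 78 separating genes as circles and the other 9 as diamonds. The axes share the jugular pools, the dashed line marks equal values, and Calca at 3.32 and 11.94 and Uts2b at -13.17 and -0.72 lie far from it.

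The series holds 4 further pools, 2 per ganglion, of neurons from C57BL/6 mice chosen by their calcium response to capsaicin. They were processed at another sequencing core and had 17666710 to 30810863 counts, so mouse strain, core and depth cannot be told apart from the way of selection. The jugular cells of that selection had also failed to respond to a P2X agonist, to which the nodose cells responded, so P2rx2 and P2rx3 are not independent there. Of the 43 jugular genes, 37 had more than 3 counts in at least 1 capsaicin pool, and 31 of these had both jugular pools above both nodose pools. That pattern held for 22% of the 10464 genes with more than 3 counts in those pools. Of the 35 nodose genes, 34 had more than 3 counts, and 24 of these had both nodose pools above both jugular pools, against 14.3% of the same genes. No floor was applied to this order. Among the 24, Unc5c, Tm4sf4, Tmem54 and Hoxb6 had 0 reads in the jugular pools and only 1 to 3 reads in the lower nodose pool. The opposite order without overlap was found for 1 jugular gene (Ypel3) and 0 nodose genes, and 5 and 10 genes overlapped. edgeR's quasi-likelihood test of the capsaicin pools called 0 of 8181 genes, with 1150 at an unadjusted p below 0.05. DESeq2 called 707 genes there, of which 604 were higher in jugular and 103 in nodose pools. Among the 604 were 16 of the 43 jugular genes, and among the 103 were 9 of the 35 nodose genes.

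Single genes differed in how they fared there. Gna14 was at 317 and 275 CPM in the jugular and 0.149 and 0.163 CPM in the nodose capsaicin pools, and Hoxb5 at 0.181 and 0 CPM against 372 and 286 CPM. Calca had 2727 and 697 CPM against 106 and 1.63 CPM. These followed the order of the tdTomato pools, as did Tac1 at 998 and 234 CPM against 0.596 and 0.408 CPM. Etv1 kept the order too, at 661 and 279 CPM in the nodose capsaicin pools, but stood at 0.326 and 94.6 CPM in the jugular ones. Likewise Chrna3 had 306.5 and 256.7 CPM in the nodose and 0.363 and 49.5 CPM in the jugular capsaicin pools. Ptgdr kept the order with only 5 reads in jugular capsaicin pool 1, 1427 in pool 2 and 0 in both nodose ones. Rgs2 and Nsun5 did not keep it. Rgs2 was at 22.3 and 0 CPM in the jugular and at 1 read in each nodose capsaicin pool. Nsun5 was at 10.4 and 0.0392 CPM in the jugular and 32.3 and 0.0408 CPM in the nodose capsaicin pools. Of the other genes named above, Cartpt, Htr3b, Mpped2, Fhod3, Necab3 and Anxa5 also overlapped between the ganglia there. Htr3b had 13 and 0 reads in the jugular and 0 in both nodose capsaicin pools. Cartpt had 59 and 5.53 CPM in the jugular and 42.9 and 187 CPM in the nodose ones. Hoxb6 kept the order at very low levels, with 0 reads in both jugular and 20 and 3 reads in the nodose capsaicin pools. Igfbp6, Def6, Igsf21 and Gm9199 were without a single count there. At 3 counts, the smallest level read there was 0.109 to 0.123 CPM.

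**Figure D4:**
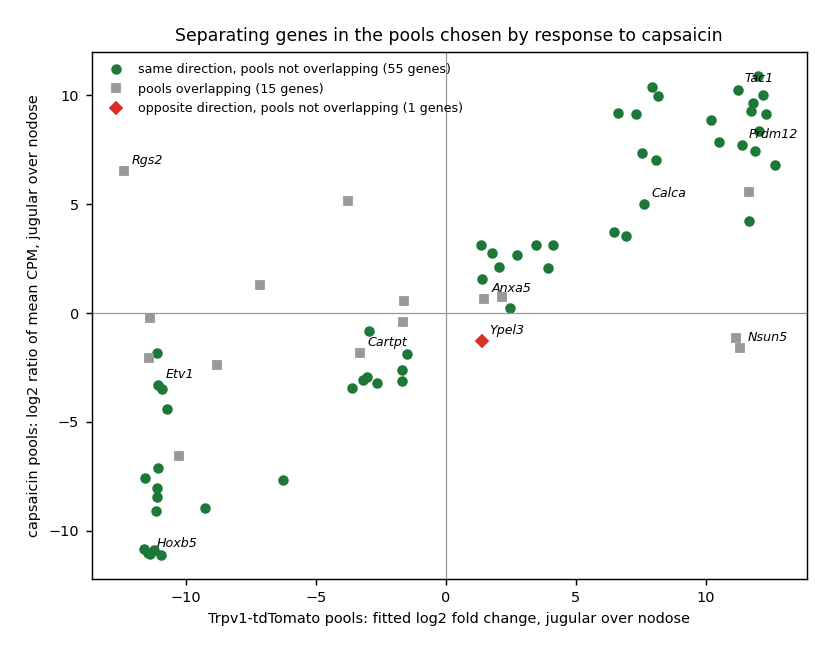
Fitted log2 fold change of jugular over nodose in the tdTomato pools (x axis) against the log2 ratio of mean CPM in the capsaicin pools (y axis) for the 71 separating genes with more than 3 counts there, with values below 3 counts set to 3 counts. Circles are genes whose capsaicin pools keep the order without overlap (55), squares those whose pools overlap (15), and the diamond is Ypel3. The order was judged without that floor.

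The composition of the pools was checked with marker genes. The summed level of 10 neuron markers was 18430 CPM in both Trpv1-positive nodose pools and 13910 to 15180 CPM in the other 4 pools. edgeR called 0 of them, with 4 at an unadjusted p below 0.05 (against 1478 of all 12314 genes tested) and 1 called by DESeq2. The 17 satellite glia and Schwann cell markers summed to 3634 to 5320 CPM, mostly Apoe at 2554 to 4022 CPM, with 3846 and 5320 CPM in the jugular pools. edgeR and DESeq2 called 0 of the 13 tested, and 2 had an unadjusted p below 0.05. Of 12 macrophage markers 9 to 11 had no count in a pool, and their sum was 33.6 and 28.1 CPM in the Trpv1-positive nodose pools against 1.31 to 8.41 CPM in the other pools. Only 2 of these markers were tested, of which edgeR called 0 and DESeq2 called 1, with 1 at an unadjusted p below 0.05. Ptprc, Csf1r, Aif1, Lyz2, Mrc1 and the C1q genes were at 0 in all 6 pools, and the part of the rest in any result was not tested. Of 20 fibroblast, vessel and blood markers 12 to 16 had no count in a pool, and edgeR called 0 of the 7 tested, with 1 at an unadjusted p below 0.05 and 1 called by DESeq2. The 5 sympathetic markers, which could mark cells of the nearby superior cervical ganglion, summed to 59.3 and 137 CPM in jugular and 108 to 180 CPM in nodose pools. edgeR called 0 of the 5, with 2 at an unadjusted p below 0.05 and 2 called by DESeq2. Of 10 immediate early genes edgeR called 0, with 1 at an unadjusted p below 0.05 and 1 called by DESeq2. Since edgeR called 0.71% of all genes tested, 0 calls in lists this small do not show that the pools were alike in composition. In pools of picked cells, fewer cells of a type and less RNA per cell cannot be told apart.

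Ribosomal reads were more frequent in the Trpv1-positive nodose libraries than in the others. Rn45s took 8.54% and 10.3% of the counts in the Trpv1-positive nodose pools and 2.65% to 3.38% in the other 4 pools. Without Rn45s, 93 genes were called and all 36 genes named by rule stayed called. Across genes, Pearson's r of log2 CPM between the pools of a group was 0.691 to 0.741. No pool was a copy of its partner, with a chi-square per degree of freedom between them of 2081 to 2585.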

How the data were processed

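RNA of picked neurons was amplified with a SMARTer ultra-low input kit, sequenced as paired ends, aligned by the authors to mm10 with TopHat2 2.0.9 and Bowtie2 2.1.0.0 and counted with HTSeq. The deposited values are raw counts per gene symbol (24421 rows, 27 of them with symbols turned into month-like words). The annotation and strand setting of the counting were not given in the sources used here. Reads were not collapsed to molecules, so the floors cover counting error only. The SE of a log2 fold change also includes the spread between pools.

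Counts of the 6 pools were fitted with edgeR 4.0.16 (R 4.3.3; TMM, filterByExpr, quasi-likelihood F test, Benjamini-Hochberg adjustment), 1 mean per group, and jugular was tested against the average of the nodose groups. The SE is the log2 fold change over the square root of F. DESeq2 1.42.0, whose size factors also gave the CPM, was an alternative, as were a replicate block, no filter, nodose as 1 group, no Rn45s and leaving out each pool. The capsaicin pools were fitted apart, and columns of other samples numbered 0. The fits were tested on simulated counts, and with little spread both tools recovered the changed genes. With wide spread edgeR missed most of them and most calls of DESeq2 were false. The simulated spread was the same for all genes, and calls there did not need 10 CPM. Its wide setting was below the common dispersion of these pools (1.859), so the simulation differs from these data. Python 3.11.15 made tables and figures.

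Genes were named by rule: the 12 widest gaps per direction, each called gene of the Hox, placodal, crest and study-picked regulator lists, up to 3 separating genes per direction of each other list, and Trpv1. Other genes of the lists were chosen after their values were seen and are given with values only. Some genes are not reported here. Members and lists were chosen with earlier results of these data known. Positions are from GENCODE vM21 (GRCm38), promoters from RefSeq on GRCm38.p6.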

Additional observations from a re-analysis of the deposited data

Results flagged for a closer look

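For 10 called genes the difference between jugular and nodose pools was not the same for the 2 nodose populations, since edgeR's quasi-likelihood test also called the Trpv1-positive against the Trpv1-negative nodose pools. Among the separating genes, the log2 fold change of Trpv1-positive over Trpv1-negative nodose pools was 8.62 for Calca (adjusted p = 0.00116), 1.92 for S100a6 (adjusted p = 0.0588), -7.12 for Ppm1j (adjusted p = 0.0231) and -9.11 for Cpne6 (adjusted p = 0.0155). Calca and S100a6 thus lay closer to jugular levels in the red nodose pools, and Ppm1j and Cpne6 in the non-red nodose pools. Among the genes that did not separate every pool, it was 12.45 for Uts2b (adjusted p = 0.0104), 12.45 for Efcab6 (adjusted p = 0.0235), 1.79 for Stmn1 (adjusted p = 0.0846), 1.6 for Fxyd2 (adjusted p = 0.0846), 1.16 for Gnas (adjusted p = 0.0371) and -10.61 for Cntn1 (adjusted p = 0.0235). Each of these nodose groups had 2 pools, and groups of this size were not tested for single outlying pools.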

How the results depend on the processing

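The 87 called, 78 separating and 24 genes called against each nodose group, and the 15 genes called between the nodose groups, changed little with DESeq2's size factors or without Rn45s. With 1 CPM in place of 10 CPM the first 3 counts stayed at 87, 78 and 24. They became 153, 130, 49 and 28 without the filter on low counts, and 945, 670, 415 and 717 with DESeq2. With nodose as 1 group of 4 pools, 43 genes were called and 43 separated. At an adjusted p of at most 0.05 the first 3 counts were 46, 40 and 14. Leaving out 1 pool gave 8 to 35, 8 to 31, 2 to 15 and 2 to 7 genes. In those fits a lone pool is assumed to vary like the other groups. Deviations of same-numbered pools from their group means correlated with r = -0.00612, 0.00996 and -0.0126 across 12310 genes. That gave no sign of pairing. With a wide spread between pools it cannot exclude that same-numbered pools came from the same mouse, which the labels do not give. The fit with the replicate block gave 19, 17, 8 and 8 genes, and 20 in the capsaicin pools, where the fit without it gave 0 and DESeq2 gave 707. The causes of these changes were not tested. Over 432 values of the 36 named genes, the direction was kept in 432. Of those 36 genes, 12 stayed called with the block, 29 with nodose as 1 group, and 5 to 21 without 1 pool. Dcdc2a, Hoxb5, Etv1 and Tac1 were called in all 12 alternatives. With 2 pools a group, a biological coefficient of variation of 1.36 over all genes, and no Trpv1-negative jugular cells, a gene that missed the threshold is not shown to be alike in the ganglia.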
